A study of Gallus gallus with 858 samples.

Results

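Among the single cells of this series that carried high SOX10 transcript, those with GATA3 and without COL9A3 (called otic-gated here, 50 cells at the later stage and 52 at the earlier) were set against those with COL9A3 and without GATA3 (called crest-gated here, 31 and 34 cells). Together they were 32.9% of the 508 cells kept at these 2 stages, and the whole series held 858 cells. All cells came from chick (Gallus gallus) embryos that had received the reporter plasmid pTK-Pax2E1-EGFP by electroporation at the head-fold stage, in which a Pax2 enhancer controls the fluorescent protein EGFP. Tissue in front of the first somite was taken, and single cells sorted as EGFP-positive each gave 1 SmartSeq2 library, a method that samples whole transcripts without marking molecules or strand. Later embryos had 14 to 15 somites (ss15) and earlier ones 11 to 12 somites (ss11). Each stage was 1 sort, and no embryo is named, so each stage stood as 1 sample. No test between gates was made, and an exact two-sided permutation test over the 2 stage pairs cannot go below p = 0.5.

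The otic placode is a patch of thickened ectoderm beside the hindbrain that folds inwards to form the inner ear, and it remains an epithelium while it does so. Neural crest cells leave the dorsal neural tube, lose their epithelial junctions and migrate, giving among other tissues glia, pigment cells and the skeleton of the face. Both express SOX10, a SoxE transcription factor of the same group as SOX8 and SOX9, so that SOX10 alone does not tell them apart. GATA3 is a zinc-finger transcription factor of placodal ectoderm, and COL9A3 encodes a chain of type IX collagen.

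The gates were chosen by the measured values of 3 genes, and those values are a description and not a finding. Cells needed at least 500000 counted reads, 1000 genes and 100 CPM of SOX10 (ENSGALG00000012290). Otic-gated cells then had at least 10 CPM of GATA3 (ENSGALG00000029270) and under 10 CPM of COL9A3 (ENSGALG00000005628), and crest-gated cells the reverse. CPM are counts scaled so that every cell, or every sum of cells, has the same total of 1000000. At ss15 the SOX10-high cells were 44.7% of those kept and held 50 otic-gated and 31 crest-gated cells, with 14 cells that had both genes and 15 that had neither. At ss11 they were 50.4% of those kept and held 52 otic-gated and 34 crest-gated cells, with 11 that had both and 35 that had neither.

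Of the kept cells, 12 at ss15 and 14 at ss11 had from 50 to under 200 CPM of SOX10. With a SOX10 limit of 200 CPM, 43 and 46 otic-gated cells and 31 and 34 crest-gated cells were left. Of the SOX10-high cells, 4 at ss15 and 2 at ss11 had from 5 to under 20 CPM of GATA3, and 1 and 6 of COL9A3. The SOX10 values just inside and just outside were 114.5 and 97.5 CPM at ss15 and 107.2 and 86.7 CPM at ss11. For GATA3 they were 11.4 and 9.18 CPM at ss15 and 10.5 and 4.29 CPM at ss11, and for COL9A3 28.4 and 5.71 CPM at ss15 and 10.4 and 6.70 CPM at ss11. SOX10 itself differed between the gates. Its median was 796 CPM in otic-gated cells (114.5 to 3070.0) and 1455 CPM in crest-gated cells (353 to 3565) at ss15. The medians at ss11 were 449 CPM in otic-gated cells (107.2 to 1501) and 999 CPM in crest-gated cells (363 to 4185).

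**Figure D1:**
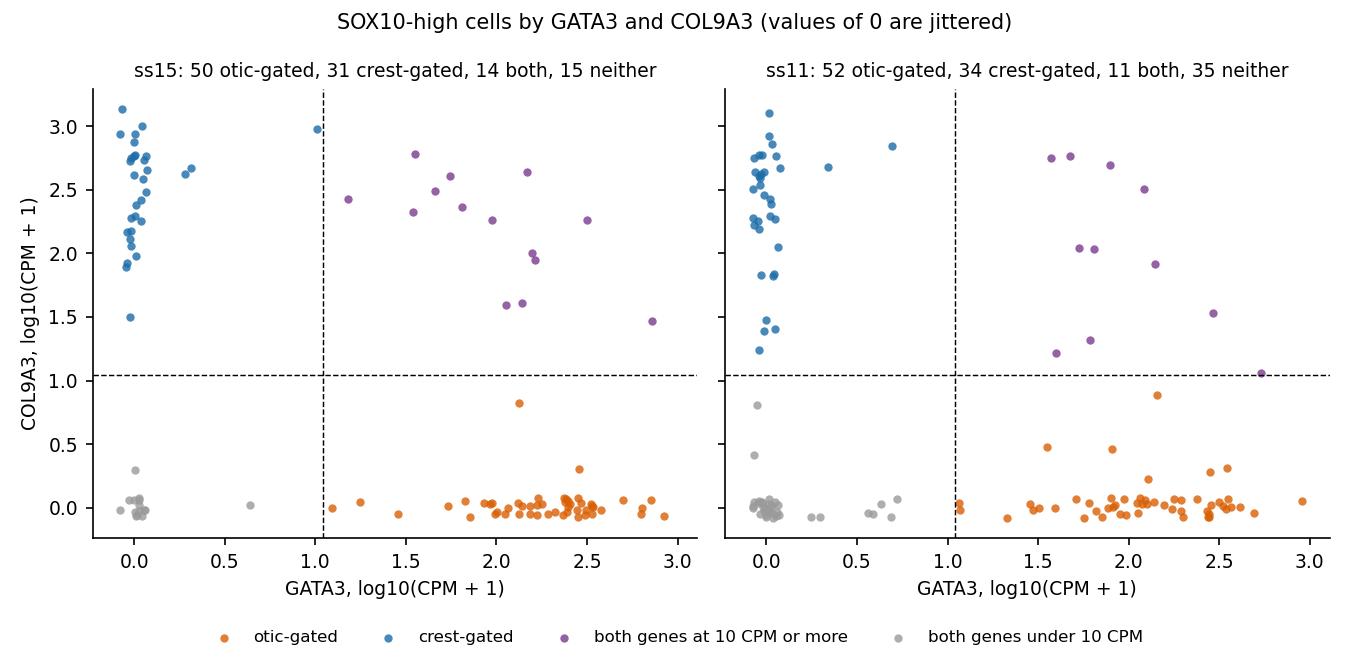
GATA3 (horizontal axis) against COL9A3 (vertical axis), both as log10 of CPM plus 1, in each SOX10-high cell at ss15 (left) and ss11 (right). Points are cells coloured by gate, values of 0 are jittered, and dashed lines stand at the limit of 10 CPM. Most cells lay along 1 axis, with 14 cells at ss15 and 11 at ss11 above both limits.

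Depth was alike in the 2 gates. Otic-gated cells held 507328 to 1763983 reads and crest-gated cells 558287 to 1752770 reads at ss15, against 535367 to 1697893 and 725389 to 1795296 reads at ss11. Otic-gated cells had fewer genes detected, with a median of 4563 against 5584 in crest-gated cells at ss15 and 5285 against 5620 at ss11. After thinning to 500000 reads per cell the median was 4481.5 in otic-gated and 5416 in crest-gated cells at ss15 and 5117.5 and 5437 at ss11. No SOX10-high libraries were near-identical, the highest correlation between any pair being 0.880. Cells with both gate genes had more genes detected at ss15 (median 6271) than either gate, and whether such a well held more than 1 cell was not tested.

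Genes were compared by summing reads over the cells of a gate within a stage. A log2 fold is the log2 of the otic-gated CPM plus 1 over the crest-gated CPM plus 1, so positive values are higher in otic-gated cells. Ranges in brackets after a fold are 95% intervals for counting error, which leave out the differences between cells, embryos and sorts. Genes counted as measured where either gate summed to 20 CPM or more and 20% or more of its cells reached 10 CPM. At ss15, 833 of 6889 measured genes (12.1%) were 2-fold or more higher in otic-gated cells and 641 (9.30%) in crest-gated cells. The counts at ss11 were 856 of 7008 (12.2%) and 499 (7.12%). At both stages 361 of 6429 genes (5.62%) were higher in otic-gated cells and 200 (3.11%) in crest-gated cells, while 34 were 2-fold or more apart in opposite directions. The median log2 fold over all measured genes was -0.010 at ss15 and -0.007 at ss11.

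Only 332 of the 24356 identifiers could be given a symbol, and these came from the study's own comparisons of other samples, so the genes named below are not a fair draw from the table. Of 100 genes with a symbol that were measured at both stages, 54 were 2-fold or more higher in otic-gated cells at both stages and 24 in crest-gated cells. On each side 15 are named, ranked by the smaller of their 2 folds. In the gate where the gene was lower, 1 cell held 50% or more of its reads for 15 of these 30 genes at each stage, and at most 3 reads were present for another 3 at ss15 and 4 at ss11. Without the highest cell of each gate all 30 remained 2-fold or more apart on the same side at both stages. All 15 crest-side genes are on the study's list of genes higher in Lmx1aE1-EGFP cells, and 13 of the 15 otic-side genes are on its list of genes higher in Sox3U3-EGFP cells. The remaining 2 were SOHO-1 and IRX1. Of the measured genes on the Sox3U3 list, 62 of 67 at ss15 and 79 of 84 at ss11 were 2-fold or more higher in otic-gated cells. Of the Lmx1aE1 list, 37 of 50 and 31 of 43 were so in crest-gated cells. Gene lists below draw on these symbols, so the share over all genes is a low background for them.

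Transcription factors of the otic placode came out on the otic side, with SOX8 as the exception. SOHO-1, a homeobox factor of the HMX family found in the ear and other sense organs, summed to 450.5 CPM in otic-gated cells and 47.5 CPM in crest-gated cells at ss15, a log2 fold of 3.22 (3.14 to 3.30). It was at 10 CPM or more in 37 of 50 otic-gated and 7 of 31 crest-gated cells. Over the otic-gated cells its lowest, median and highest values were 0, 210.4 and 3913 CPM, against 0, 0 and 992 CPM in crest-gated cells. The gates thus overlapped, since some otic-gated cells had none. A single crest-gated cell, at 992 CPM, lay above the otic-gated median, and the next had 173.6 CPM. The cell at 992 CPM held 60.3% of the crest-gated reads and had no TFAP2B or FOXD3 read, which are crest factors described below. At ss11 SOHO-1 summed to 221.96 CPM in otic-gated cells and 17.9 CPM in crest-gated cells (log2 fold 3.56, 3.45 to 3.67), and it was detected in 37 of 52 and 3 of 34 cells.

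LMX1A, a LIM-homeobox factor of the otic vesicle, had 94.4 CPM in otic-gated and 6.59 CPM in crest-gated cells at ss15 (log2 fold 3.65) and 95.4 and 16.3 CPM at ss11 (2.48). It was detected in 26 of 50 otic-gated and 4 of 31 crest-gated cells at ss15, and in 35 of 52 and 4 of 34 at ss11. Its single-cell values reached 473 CPM in otic-gated and 108.3 CPM in crest-gated cells at ss15, and 615 and 347 CPM at ss11. The crest-gated cell with 347 CPM at ss11 also had the highest crest-gated SOHO-1 value, 487 CPM, and no TFAP2B or FOXD3 read. The placodal factors DLX3, with log2 folds of 1.26 at ss15 and 3.85 at ss11, and EBF3, with 1.25 and 1.58, lay on the same side. A single crest-gated cell held 100% of the crest-gated DLX3 reads at each stage. DLX6 was measured at ss15 only (28.3 CPM in otic-gated and 0.435 CPM in crest-gated cells). IRX1, an Iroquois homeobox factor, had 20.7 CPM in otic-gated and 0.301 CPM in crest-gated cells at ss15 (log2 fold 4.06, 3.78 to 4.26) and 20.8 and 0.677 CPM at ss11 (3.70, 3.44 to 3.93). Cells with SOX10 under 100 CPM had 29.8 CPM of IRX1 at ss15 and 16.8 CPM at ss11.

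SOX8 did not separate the gates. It summed to 253.95 CPM in otic-gated and 181.1 CPM in crest-gated cells at ss15 (log2 fold 0.49) and to 233.5 and 149.6 CPM at ss11 (0.64). The median cell had 200.5 CPM in the otic gate and 169.7 CPM in the crest gate at ss15, and 204.6 and 124.2 CPM at ss11. It was detected in 42 of 50 otic-gated and 29 of 31 crest-gated cells at ss15, and in 50 of 52 and 29 of 34 at ss11. Of the crest-gated cells, 28 at each stage had both SOX8 and TFAP2B. Of the list of 25 otic and placodal transcription factors, 6 had an identifier. At ss15, 5 of the 6 measured were 2-fold or more higher in otic-gated cells, beside 12.1% of all genes, with a list median log2 fold of 2.24, and at ss11 it was 4 of 5, beside 12.2%, with a median of 2.48. None was higher in crest-gated cells at either stage.

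Neural crest transcription factors came out on the crest side. FOXD3, a forkhead factor of premigratory crest, had 0.902 CPM in otic-gated and 42.7 CPM in crest-gated cells at ss15, a log2 fold of -4.52 (-4.74 to -4.28). Of 50 otic-gated cells 1 reached 10 CPM, against 22 of 31 crest-gated cells, whose lowest, median and highest values were 0, 24.3 and 152.7 CPM. At ss11 no FOXD3 read fell in any of 52 otic-gated cells (exact interval up to 6.85%), while 26 of 34 crest-gated cells had it. The crest-gated sum was 54.8 CPM, 1006 times the level of 3 reads in the otic gate. FOXD3 was thus nearly absent from the otic gate at both stages, and 9 of 31 and 8 of 34 crest-gated cells lay under 10 CPM.

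TFAP2B, an AP-2 factor of crest and neighbouring ectoderm, was the most widespread of them. It summed to 17.95 CPM in otic-gated and 422 CPM in crest-gated cells at ss15 (log2 fold -4.48, -4.58 to -4.38), and to 4.48 and 438 CPM at ss11 (-6.32, -6.47 to -6.17). It was detected in 8 of 50 otic-gated and 29 of 31 crest-gated cells at ss15, and in 4 of 52 and 32 of 34 at ss11. The highest otic-gated cell at ss15 had 496 CPM, above the crest-gated median of 364 CPM, and held 46.4% of the otic-gated reads. The same cell was the 1 otic-gated cell with FOXD3 at 10 CPM or more (52.3 CPM) and had 141.3 CPM of PAX7. It had no SOHO-1 or LMX1A read and 1 GFP read.

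PAX7, a paired-box factor of the crest, had 15.5 CPM in otic-gated and 78.2 CPM in crest-gated cells at ss15 (log2 fold -2.27, -2.38 to -2.15), where 3 of 50 and 12 of 31 cells reached 10 CPM. The highest otic-gated cell had 412 CPM and the highest crest-gated cell 852 CPM, so this difference was carried by few cells. With only cells that had at least 5 GFP reads its log2 fold at ss15 was 2.96, on the opposite side, with 8 crest-gated cells left. At ss11 otic-gated cells held 3 PAX7 reads in all, and crest-gated cells 117.5 CPM, with detection in 15 of 34 cells. The ratio of crest-gated to otic-gated CPM was 2159 (738 to 10472).

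Within the crest gate FOXD3 and PAX7 were found in TFAP2B-positive cells with 1 exception. TFAP2B was in 29 of 31 crest-gated cells at ss15 and 32 of 34 at ss11, so such overlap would be seen for nearly any gene. At ss15 all 22 crest-gated cells with FOXD3 and all 12 with PAX7 also had TFAP2B, and 10 had both FOXD3 and PAX7. At ss11 the numbers were 25 of 26 with FOXD3, 15 of 15 with PAX7 and 15 with both. ZEB2, a zinc-finger repressor of epithelial genes, had 14.1 CPM in otic-gated and 174.5 CPM in crest-gated cells at ss15 (log2 fold -3.54, -3.66 to -3.43) and 5.86 and 196.2 CPM at ss11 (-4.85, -4.99 to -4.71). A single cell held 64.01% of the otic-gated ZEB2 reads at ss15 and 92.6% at ss11.

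**Figure D2:**
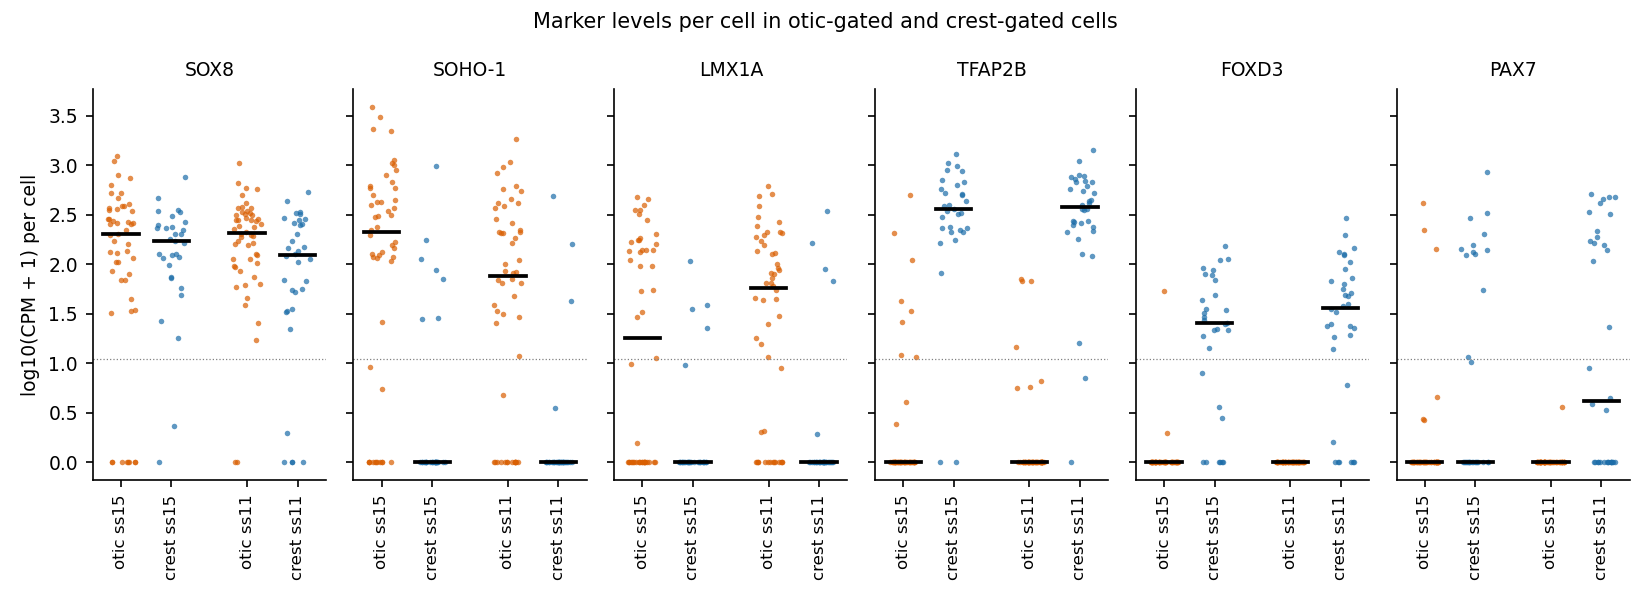
Level of 6 transcription factors in each cell as log10 of CPM plus 1 (vertical axis), with otic-gated cells in orange left of crest-gated cells in blue, at ss15 and then ss11. Points are cells, black bars medians and the dotted line 10 CPM. SOX8 medians lay between 124.2 and 204.6 CPM in all 4 groups, whereas SOHO-1 and LMX1A medians were 0 in crest-gated cells and TFAP2B and FOXD3 medians were 0 in otic-gated cells.

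Of the list of 20 neural crest markers, 10 had an identifier. At ss15, 8 of 9 measured were 2-fold or more higher in crest-gated cells, beside 9.30% of all genes, and at ss11 all 6 measured, beside 7.12%. The 10 markers stand on the study's Lmx1aE1 list. Of its measured genes, 37 of 50 at ss15 and 31 of 43 at ss11 were higher by as much. The marker shares thus lay nearer to those of that list than to those of all genes. The median log2 fold of the markers was -2.84 at ss15 and -4.73 at ss11, or -4.99 with FOXD3 at the level of 3 reads. RXRG, a retinoid X receptor, had 46.4 CPM in otic-gated and 338 CPM in crest-gated cells at ss15 (log2 fold -2.84, -2.91 to -2.77) and 24.5 and 155.8 CPM at ss11 (-2.62, -2.70 to -2.54). EDNRB, the endothelin receptor of migrating crest, had 0.748 and 28.9 CPM at ss15 and 9.89 and 30.2 CPM at ss11. MEF2C, a MADS-box factor, was measured at ss15 only, with 0.660 CPM in otic-gated and 36.5 CPM in crest-gated cells. LMO4 was the member measured at ss15 that stayed within 2-fold, at 19.999 CPM in otic-gated and 38.5 CPM in crest-gated cells.

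The names of the gates were set against a few of these markers in single cells. At 10 CPM, SOHO-1 or LMX1A was present in 44 of 50 otic-gated cells (88%, exact interval 75.7 to 95.5) and 9 of 31 crest-gated cells (29.03%, 14.2 to 48.04) at ss15. At ss11 it was 45 of 52 (86.5%, 74.2 to 94.4) and 5 of 34 (14.7%, 4.95 to 31.1). TFAP2B or FOXD3 was present in 8 of 50 otic-gated (16%, 7.17 to 29.1) and 29 of 31 crest-gated cells (93.5%, 78.6 to 99.2) at ss15, and in 4 of 52 (7.69%, 2.14 to 18.5) and 33 of 34 (97.1%, 84.7 to 99.9) at ss11. Both kinds of marker stood together in 5 otic-gated and 8 crest-gated cells at ss15 and in 2 and 4 cells at ss11. These 2 pairs of genes were chosen after their values were seen, so their division of the gates is a description and no check.

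DACT2, a Dishevelled-binding protein counted here among otic markers, went the other way. It had 97.4 CPM in otic-gated and 389.8 CPM in crest-gated cells at ss15 (log2 fold -1.99), and 108.98 and 648 CPM at ss11 (-2.56). It was detected in 16 of 50 otic-gated and 27 of 31 crest-gated cells at ss15 and in 26 of 52 and 30 of 34 at ss11. Counted by a set of SOX8, SOHO-1, LMX1A and DACT2, at least 2 of the 4 were present in 42 otic-gated and 27 crest-gated cells at ss15 and in 45 and 27 cells at ss11, so that this set did not divide the gates, whereas at least 3 of 6 crest markers were present in 3 otic-gated and 27 crest-gated cells at ss15 and in 0 and 29 cells at ss11.

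Genes of epithelial junctions and keratin filaments were higher in otic-gated cells. Of 20 genes on the list 16 had an identifier and 13 were measured at each stage. In otic-gated cells 12 of the 13 were 2-fold or more higher at ss15, beside 12.1% of all genes, and 13 of 13 at ss11, beside 12.2%, with list median log2 folds of 2.24 and 3.49. The members named below stand on the study's Sox3U3 list, of which 62 of 67 measured genes were higher by as much at ss15 and 79 of 84 at ss11. The junction and keratin shares thus lay near those of the Sox3U3 list. PKP2, a desmosome plaque protein, was the member within 2-fold at ss15, at 25.2 CPM in otic-gated and 19.9 CPM in crest-gated cells. The median otic-gated cell had 8 of the 16 genes at 10 CPM at ss15 (4 to 12) and the median crest-gated cell 3 (0 to 8), with 9 (3 to 13) and 3 (0 to 9) at ss11.

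EPCAM, an epithelial adhesion molecule, ranked next after FA2H on the otic side. It summed to 1118 CPM in otic-gated and 67.8 CPM in crest-gated cells at ss15 (log2 fold 4.02, 3.96 to 4.09) and to 1096 and 53.1 CPM at ss11 (4.34, 4.28 to 4.41). It was present in 49 of 50 otic-gated and 10 of 31 crest-gated cells at ss15 and in 50 of 52 and 9 of 34 at ss11. The median otic-gated cell had 849 CPM at ss15 and 1137 CPM at ss11, and the median crest-gated cell had 0 at both. A single crest-gated cell held 74.01% of the crest-gated EPCAM reads at ss15, and without the highest cell of each gate the log2 fold was 5.54. Most crest-gated cells with EPCAM also had TFAP2B, 9 of 10 at ss15 and 8 of 9 at ss11, and each of the otic-gated cells with TFAP2B, 8 at ss15 and 4 at ss11, also had EPCAM. These overlaps lay near the base shares, since nearly all crest-gated cells had TFAP2B and nearly all otic-gated cells had EPCAM.

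Claudin-1 (CLDN1), a tight-junction protein, was the most abundant of the list, at 3205 CPM in otic-gated and 677 CPM in crest-gated cells at ss15 (log2 fold 2.24) and 4038 and 378 CPM at ss11 (3.41). Every otic-gated cell had it, and so did 22 of 31 crest-gated cells at ss15 and 22 of 34 at ss11. CDH1, encoding E-cadherin, was present in 37 of 50 otic-gated and 1 of 31 crest-gated cells at ss15 and in 36 of 52 and 4 of 34 at ss11.

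Among the keratins, KRT18 had 158.4 CPM in otic-gated and 23.4 CPM in crest-gated cells at ss15 and 352 and 18.4 CPM at ss11. KRT19 had 476 and 138.8 CPM at ss15 and 568 and 70.3 CPM at ss11. KRT7 had 148.9 CPM in otic-gated and 17.9 CPM in crest-gated cells at ss15 (log2 fold 2.99, 2.87 to 3.11), where 1 crest-gated cell held 97.8% of the crest reads. At ss11 it had 278.3 CPM in otic-gated cells and 3 reads in crest-gated cells, a ratio of 3425 (1172 to 16612). KRT7 was thus present in 1 of 65 crest-gated cells over both stages, against 17 of 50 and 30 of 52 otic-gated cells.

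ESRP1 and ESRP2, RNA-binding proteins that set epithelial splicing, lay on the same side. ESRP1 had 37.2 CPM in otic-gated and 3.58 CPM in crest-gated cells at ss15 (log2 fold 3.06, 2.83 to 3.29) and 50.4 and 2.82 CPM at ss11 (3.75, 3.53 to 3.97). ESRP2 had 202.1 and 52.8 CPM at ss15 and 213.7 and 46.5 CPM at ss11. EZR (ezrin), which ties the apical membrane to actin, had 376 CPM in otic-gated and 25.5 CPM in crest-gated cells at ss15 (3.83, 3.73 to 3.93) and 462 and 16.9 CPM at ss11 (4.69, 4.59 to 4.80).

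**Figure D3:**
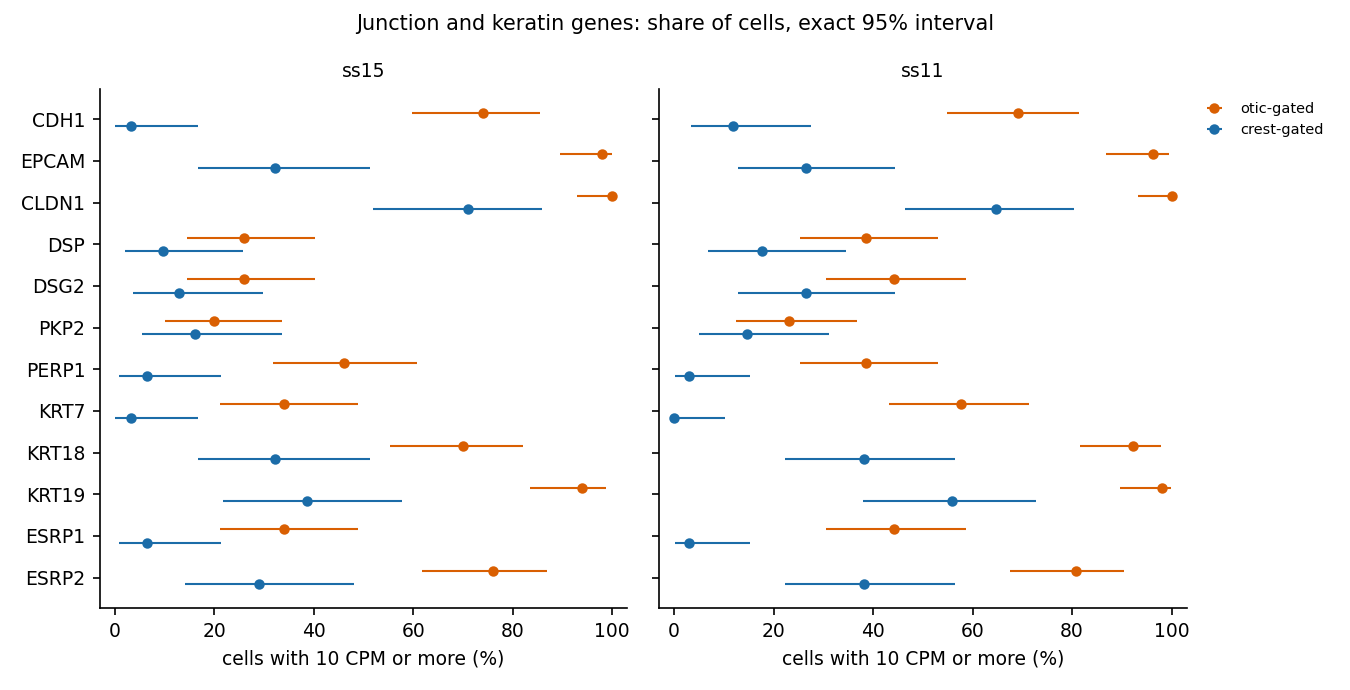
Share of cells with at least 10 CPM (horizontal axis, %) for 12 of the 13 measured junction and keratin genes at ss15 (left) and ss11 (right), otic-gated in orange above crest-gated in blue, with exact 95% binomial intervals. EPCAM was present in 98% of otic-gated and 32.3% of crest-gated cells at ss15, and PKP2 in 20% and 16.1%. The intervals treat the cells of a sort as independent and are no test between the gates.

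The junction genes were not particular to otic-gated cells within the series. EPCAM summed to 749 CPM at ss15 and 716 CPM at ss11 in the cells with SOX10 under 100 CPM (SOX10-low), CLDN1 to 2835 and 2305 CPM and KRT7 to 157.96 and 384 CPM. SOX10-low cells had a median of 7 of the 16 genes at ss15 and 5 at ss11. DSP (desmoplakin), at 22.4 CPM in otic-gated and 6.86 CPM in crest-gated cells at ss15, was at 126.9 CPM in SOX10-low cells, and at ss11 the values were 33.4, 12.5 and 84.6 CPM.

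The other otic-side genes named by rank code for membrane, cytoskeletal and secreted proteins. FA2H, which adds a hydroxyl group to the fatty acids of sphingolipids, ranked first. At ss15 it had 99.99 CPM in otic-gated cells, 20 of 50 of them at 10 CPM, and no read in 31 crest-gated cells (exact interval up to 11.2%). The otic-gated level was 996 times that of 3 reads in the crest gate. At ss11 it had 411 CPM in otic-gated and 11.3 CPM in crest-gated cells (log2 fold 5.06, 4.93 to 5.19), with detection in 35 of 52 and 3 of 34 cells. FA2H was also present in SOX10-low cells, at 224.9 CPM at ss15 and 173.1 CPM at ss11.

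MAP7, a microtubule-associated protein, had 58.9 CPM in otic-gated and 1.37 CPM in crest-gated cells at ss15 and 40.3 and 1.87 CPM at ss11. LARGE2, a glycosyltransferase that acts on dystroglycan, had 125.9 and 9.60 CPM at ss15 and 186.2 and 14.4 CPM at ss11. TSPAN13, a tetraspanin, was among the most widespread, in 46 of 50 otic-gated and 10 of 31 crest-gated cells at ss15 and 47 of 52 and 9 of 34 at ss11. RASSF7, a Ras-association protein, had 38.9 CPM in otic-gated cells and no read in crest-gated cells at ss15. At ss11 it had 27.99 CPM in otic-gated and 2.38 CPM in crest-gated cells (log2 fold 3.10, 2.87 to 3.33).

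EMP1, an epithelial membrane protein, had 120.1 CPM in otic-gated and 9.73 CPM in crest-gated cells at ss15, where 1 crest-gated cell held 100% of the crest reads. At ss11 it had 100.5 CPM in otic-gated cells and 3 reads in crest-gated cells, a ratio of 1237 (423 to 6002). COL14A1, a fibril-associated collagen, had 52.8 CPM in otic-gated and 4.11 CPM in crest-gated cells at ss15 and 41.5 and 1.62 CPM at ss11. It was higher in SOX10-low cells, at 122.97 CPM at ss15 and 70.2 CPM at ss11. SPIK5 summed to 338 CPM in otic-gated and 2.94 CPM in crest-gated cells at ss15 and to 633 and 75.4 CPM at ss11. Its sums rested on few cells, since 1 cell held 58.4% of the otic-gated reads at ss15 and 1 cell held 92.03% of the crest-gated reads at ss11. SOX10-low cells also held the other genes, with SPIK5 at 684 CPM at ss15 and 251.6 CPM at ss11. There LARGE2 had 134.98 and 138.7 CPM, TSPAN13 270.7 and 246.3 CPM and RASSF7 30.99 and 31.03 CPM. MAP7, at 40.4 and 30.9 CPM, and EMP1, at 50.3 and 75.8 CPM, were lower there than in otic-gated cells at both stages.

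Of the signalling ligands, BMP2 had 33.6 CPM in otic-gated and 2.07 CPM in crest-gated cells at ss15 (log2 fold 3.49, 3.23 to 3.75) and 50.99 and 0.542 CPM at ss11 (5.08, 4.82 to 5.29). It was present in 11 of 50 otic-gated and 1 of 31 crest-gated cells at ss15 and in 23 of 52 and 1 of 34 at ss11. SOX10-low cells had 33.9 CPM of BMP2 at ss15 and 24.3 CPM at ss11. FGF18 was the only measured gene of 4 FGF pathway genes with an identifier, at 27.9 and 7.53 CPM at ss15 and 59.7 and 2.98 CPM at ss11. CXCL12, a chemokine, had 59.2 CPM in otic-gated and 13.9 CPM in crest-gated cells at ss15 and 156.97 and 2.27 CPM at ss11.

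Crest-side genes named by rank began with a guidance receptor. PLXNA4, a plexin that transduces semaphorin signals, had 2.64 CPM in otic-gated and 148.1 CPM in crest-gated cells at ss15 (log2 fold -5.36, -5.55 to -5.16) and 1.90 and 124.7 CPM at ss11 (-5.44, -5.62 to -5.24). It was present in 4 of 50 otic-gated and 17 of 31 crest-gated cells at ss15, where single crest-gated cells reached 1697 CPM, and in 3 of 52 and 16 of 34 at ss11. RTN4R, the Nogo receptor, had 1.14 and 36.9 CPM at ss15 and 6.38 and 30.5 CPM at ss11. ANOS1, a secreted matrix protein, had 4.49 and 58.9 CPM at ss15 and 1.49 and 41.7 CPM at ss11.

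Genes of lipid and glial biology were mixed. SMPD3, a neutral sphingomyelinase, had 7.79 CPM in otic-gated and 162.97 CPM in crest-gated cells at ss15 (log2 fold -4.22, -4.36 to -4.08) and 8.94 and 119.5 CPM at ss11 (-3.60, -3.72 to -3.48). FABP7, the fatty-acid binding protein of radial glia and glial precursors, had 6.29 and 77.5 CPM at ss15 and 12.4 and 110.3 CPM at ss11, and was present in 9 of 50 otic-gated and 25 of 31 crest-gated cells at ss15. Of 7 list members with an identifier, 5 were measured at each stage. FA2H was the one higher in otic-gated cells, while 4 were 2-fold or more higher in crest-gated cells at ss15, beside 9.30% of all genes, and 3 at ss11, beside 7.12%. GAL3ST1, which makes sulfatide, was among them at 24.7 CPM in otic-gated and 62.1 CPM in crest-gated cells at ss15 and 16.5 and 63.8 CPM at ss11. SMPD3, FABP7 and GAL3ST1 stand on the Lmx1aE1 list. Of its measured genes, 37 of 50 at ss15 and 31 of 43 at ss11 were higher in crest-gated cells by 2-fold or more.

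The crest side also held genes of other kinds. CISH, an inhibitor of cytokine signalling of the SOCS family, had no read in 50 otic-gated cells at ss15 and 29.6 CPM in crest-gated cells. At ss11 it had 2.14 CPM in otic-gated and 23.8 CPM in crest-gated cells (log2 fold -2.98, -3.18 to -2.78). BFSP2, a filament protein known from the lens, had 6.95 CPM in otic-gated and 53.1 CPM in crest-gated cells at ss15 and 4.72 and 42.8 CPM at ss11. RNF122, a RING-finger protein, had 7.06 and 50.5 CPM at ss15 and 8.40 and 44.3 CPM at ss11. ZCCHC24, a zinc-finger protein, had 1.87 and 32.2 CPM at ss15 and 3.54 and 20.4 CPM at ss11. None of these was in all crest-gated cells, with the widest, ZCCHC24, in 22 of 31 at ss15. Some crest-side genes were also present in SOX10-low cells. ZEB2 summed there to 98.6 CPM at ss15 and 130.6 CPM at ss11, FABP7 to 30.9 and 76.6 CPM and PAX7 to 29.7 and 60.2 CPM. Others were low there, such as FOXD3 at 0.238 and 6.36 CPM and RXRG at 8.58 and 5.70 CPM.

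Identifiers without a symbol also stood high when all genes were ranked in this way, although PLXNA4 came first on the crest side. On the otic side ENSGALG00000010903 had log2 folds of 5.69 and 5.90 at ss15 and ss11, and ENSGALG00000017031 had 5.17 and 5.40. On the crest side ENSGALG00000003670, at 8.60 CPM in otic-gated and 285.8 CPM in crest-gated cells at ss15, had -4.90 and -6.17, and ENSGALG00000012357 had -4.71 and -5.40. In SOX10-low cells ENSGALG00000003670 had 196.6 CPM at ss15 and 384 CPM at ss11, and ENSGALG00000012357 had 88.7 and 117.3 CPM.

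Genes of the Wnt pathway and of the epithelial to mesenchymal transition came next. LEF1, the transcription factor that acts with beta-catenin, had 18.8 CPM in otic-gated and 205.9 CPM in crest-gated cells at ss15 (log2 fold -3.38, -3.48 to -3.28) and 20.1 and 148.1 CPM at ss11 (-2.82, -2.91 to -2.73). Of 11 Wnt pathway genes with an identifier, 5 were measured at ss15, and all 5 were 2-fold or more higher in crest-gated cells, beside 9.30% of all genes. At ss11, 3 of 6 were higher in crest-gated cells, beside 7.12%, and 2 in otic-gated cells, beside 12.2%. LEF1, DACT2 and DRAXIN, a secreted Wnt antagonist and guidance protein, were the 3 higher in crest-gated cells at both stages. These 3 and SFRP1, described below, stand on the study's Lmx1aE1 list. Of its measured genes, 37 of 50 at ss15 and 31 of 43 at ss11 were higher in crest-gated cells by as much. SOSTDC1, a secreted antagonist of BMP and Wnt, had 36.8 CPM in otic-gated and 1.44 CPM in crest-gated cells at ss11. TCF7L1, of the same TCF and LEF family, had log2 folds of -1.83 at ss15 and 0.38 at ss11.

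SFRP1, a secreted Wnt inhibitor, lay on opposite sides at the 2 stages. It had 64.3 CPM in otic-gated and 178.9 CPM in crest-gated cells at ss15 (log2 fold -1.46, -1.53 to -1.40), and 152.5 and 62.6 CPM at ss11 (1.27, 1.20 to 1.34). It was present in 23 of 50 otic-gated and 26 of 31 crest-gated cells at ss15 and in 36 of 52 and 14 of 34 at ss11. Of 14 genes on the transition list 6 had an identifier. Of the 4 measured at ss15, SNAI1, ZEB2, CDH7 and TIMP2, all were 2-fold or more higher in crest-gated cells (median -1.49), beside 9.30% of all genes. ZEB2, CDH7 and TIMP2 stand on the Lmx1aE1 list, of which 37 of 50 measured genes were higher by as much at ss15. At ss11 ZEB2 was the 1 of 3 higher in crest-gated cells, beside 7.12%, and SNAI1 the 1 higher in otic-gated cells, beside 12.2%. SNAI1, a zinc-finger repressor, had 17.6 CPM in otic-gated and 37.6 CPM in crest-gated cells at ss15 and 24.3 and 7.66 CPM at ss11, and reached 10 CPM in 5 of 50, 7 of 31, 16 of 52 and 4 of 34 cells of these 4 groups. SFRP1 and SNAI1 were the 2 genes with a symbol that were 2-fold or more apart in opposite directions.

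Folds also differed in size between the stages, and these differences had no replicate and were not tested. Of 100 genes with a symbol 48 had log2 folds that differed by 1 or more between stages, beside 1188 of all 6429 genes. The difference of the log2 folds (ss15 minus ss11) was 4.55 for PAX7, 3.37 for SPIK5, 2.67 for SMAGP, 2.58 for DRAXIN and 2.45 for ATP8B1. It was -5.02 for KRT7, -3.84 for RNF128, -3.58 for CXCL12, -3.06 for EMP1 and -2.73 for SFRP1. For SMAGP at ss15 and RNF128 at ss11 the crest gate had no read, and for PAX7, KRT7 and EMP1 at ss11 1 gate had 3, so these differences depend on the 1 CPM added. For DRAXIN, well above that level, crest-gated cells had 61.1 CPM at ss15 and 800.0 CPM at ss11. Otic-gated cells had 28.5 and 62.6 CPM of it, and SOX10-low cells, those with SOX10 under 100 CPM, 51.97 and 476 CPM. Several of the other differences leaned on 1 crest-gated cell. At ss11 a single such cell held 100% of the crest-gated ATP8B1 reads, 92.03% of the SPIK5 reads and 90.5% of the CXCL12 reads. At ss15 a single such cell held 97.8% of the KRT7 reads and 100% of the EMP1 reads.

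**Figure D4:**
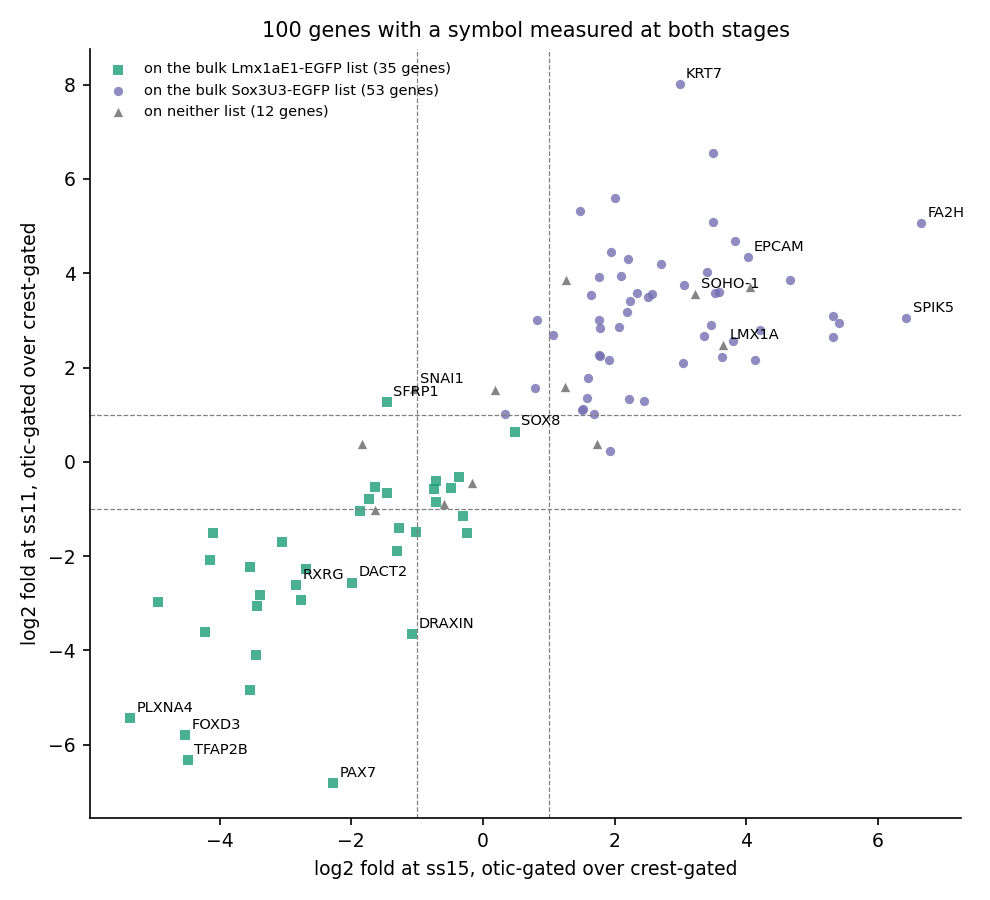
Log2 fold of otic-gated over crest-gated cells at ss15 (horizontal axis) and ss11 (vertical axis) for the 100 genes with a symbol measured at both stages, coloured by the bulk list they stand on, with dashed lines at 2-fold. Of these genes 54 lay past 2-fold on the otic side at both stages and 24 on the crest side, and SFRP1 and SNAI1 lay in the upper left corner.

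The study's bulk lists were read against the gates because they supplied nearly all the symbols. They hold genes higher in cells labelled by the otic enhancer Lmx1aE1 or by the epibranchial enhancer Sox3U3, each against the other, in embryos of a later stage that were not analysed here. SOX10 and COL9A3 stand on the first list and GATA3 on the second, so the gates and the lists are not independent. Of the Lmx1aE1 list 43 identifiers (41.7%) were measured at both stages, of which 28 were 2-fold or more higher in crest-gated cells at both, beside 3.11% of all genes, and 0 in otic-gated cells. Its median log2 fold was -2.41 at ss15 and -2.09 at ss11. Of 319 on the Sox3U3 list, 65 (20.4%) were measured at both stages, of which 59 were higher in otic-gated cells, beside 5.62% of all genes, and 0 in crest-gated cells. The median was 2.44 at ss15 and 3.08 at ss11. Among the members higher in crest-gated cells were FOXD3, PAX7, TFAP2B, EDNRB and RXRG, and SOX8, on the same list, was within 2-fold at both stages.

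Both gates were also compared with the SOX10-low cells of the same stage. A gene had to pass in each gate at each stage. The shares passing in each gate alone are not given here, so the counts have no background. Over 6051 genes measured in both comparisons at both stages, 14 (0.231%) were 2-fold or more above SOX10-low cells in both gates and 32 (0.529%) below. SOX10 set this contrast, so the values are a description. SOX8 had 253.95 CPM in otic-gated, 181.1 CPM in crest-gated and 45.4 CPM in SOX10-low cells at ss15 and 233.5, 149.6 and 37.1 CPM at ss11. RXRG and B3GAT1L, a gene named for a glucuronyltransferase, were the other genes with a symbol above SOX10-low cells in both gates, although each was higher in crest-gated cells. Those below were FGF8, AGR2, BLNK, CHST9, ADGRG2, PLEKHS1, DSP and ISL1. FGF8, a ligand of the epibranchial region, had 4.33 CPM in otic-gated, 0.0335 CPM in crest-gated and 33.5 CPM in SOX10-low cells at ss15 and 3.12, 0 and 30.5 CPM at ss11.

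Markers of other cell types were checked in the gates. Of 14 epibranchial markers, all with an identifier, 4 were measured at ss15 and 5 at ss11. Of these 3 at ss15 and 4 at ss11 were 2-fold or more higher in otic-gated cells, beside 12.1% and 12.2% of all genes, and none in crest-gated cells. All 14 stand on the Sox3U3 list, of which 62 of 67 measured genes at ss15 and 79 of 84 at ss11 were higher by as much. The 3 at ss15 were PDLIM1, NELL1 and SPIK5, at 75.2, 32.1 and 338 CPM in otic-gated cells. In SOX10-low cells they were higher, at 149.9, 119.01 and 684 CPM. The summed level of the list in single otic-gated cells ran from 0 to 10536 CPM at ss15 (median 264.4) and from 0 to 8582 CPM at ss11 (median 316). In crest-gated cells it ran from 0 to 655 CPM (median 43.5) and from 0 to 2745 CPM (median 68.99). SPIK5 alone reached 9779.8 CPM in an otic-gated cell at ss15 and 8162 CPM at ss11, and 2735 CPM in a crest-gated cell at ss11. The list members at 0 in crest-gated cells at ss15 were VGLL2, ISL1, TLX1 and WNT9B, none of which counted as measured there. In otic-gated cells VGLL2, TLX1 and WNT9B summed to 12.8, 23.4 and 0.924 CPM at ss15, against 77.9, 138.6 and 43.4 CPM in SOX10-low cells. ISL1, a LIM-homeobox factor of sensory neurons, reached 10 CPM in 9 of 50 otic-gated cells at ss15 and in 10 of 52 at ss11, with sums of 36.9 and 32.6 CPM, below the 105.4 and 77.9 CPM of SOX10-low cells. The part of such cells in the otic-gated levels was not tested.

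Of 5 neural plate markers with an identifier none was measured at either stage. Their summed level in 1 cell reached 8.16 CPM in otic-gated and 41.4 CPM in crest-gated cells at ss15 and 0 and 56.8 CPM at ss11, with ZIC1, ZIC2 and FEZF1 at 0 in otic-gated cells at both stages. Of 4 mesoderm markers none was measured, and their sum reached 5.67 CPM in otic-gated and 328 CPM in crest-gated cells at ss15 and 132.8 and 56.5 CPM at ss11. Within that list was ALX1, a homeobox factor of face mesenchyme that crest also expresses. It was at 10 CPM in 7 of 31 crest-gated cells at ss15 and in 0 of 50 otic-gated cells (exact interval up to 7.11%). Of 4 immediate early and stress genes, FOS, JUN, HSPA2 and CHAC1, 4 were measured at ss15 and 3 at ss11. Of these 2 were 2-fold or more higher in otic-gated cells at each stage, beside 12.1% and 12.2% of all genes, while CHAC1 was higher in crest-gated cells at ss15, beside 9.30%. HSPA2, a heat-shock protein at 673 CPM in otic-gated and 210.2 CPM in crest-gated cells at ss15, was the one higher in otic-gated cells at both. Of the collagen and matrix list, 2 of 5 genes were measured, COL14A1 and TIMP2, and of the retinoid list RXRG and RLBP1. No cell cycle gene of the list had an identifier.

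The reporter divided the gates as well, although it was no part of their rule. At least 5 GFP reads were present in 42 of 50 otic-gated cells (84%, exact interval 70.9 to 92.8) and 8 of 31 crest-gated cells (25.8%, 11.9 to 44.6) at ss15. At ss11 the shares were 42 of 52 (80.8%, 67.5 to 90.4) and 4 of 34 (11.8%, 3.30 to 27.5). The median was 290.5 reads in otic-gated and 0 in crest-gated cells at ss15 and 213.5 and 0 at ss11, while the highest crest-gated cell had 1490 reads at ss15 and 1545 at ss11. Cells without GFP reads had been sorted as EGFP-positive like the rest.

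Genes of either gate were found in cells with and without GFP reads. Among otic-gated cells with fewer than 5 GFP reads, EPCAM was present in 7 of 8 at ss15 and 9 of 10 at ss11, against 42 of 42 and 41 of 42 of those with at least 5. LMX1A was present in 1 of 8 and 4 of 10 otic-gated cells with fewer reads, against 25 of 42 and 31 of 42, and SOHO-1 in 5 of 8 and 6 of 10, against 32 of 42 and 31 of 42. Among crest-gated cells with at least 5 GFP reads, TFAP2B was present in 6 of 8 at ss15 and 4 of 4 at ss11, against 23 of 23 and 28 of 30 with fewer, and FOXD3 in 4 of 8 and 1 of 4, against 18 of 23 and 25 of 30.

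**Figure D5:**
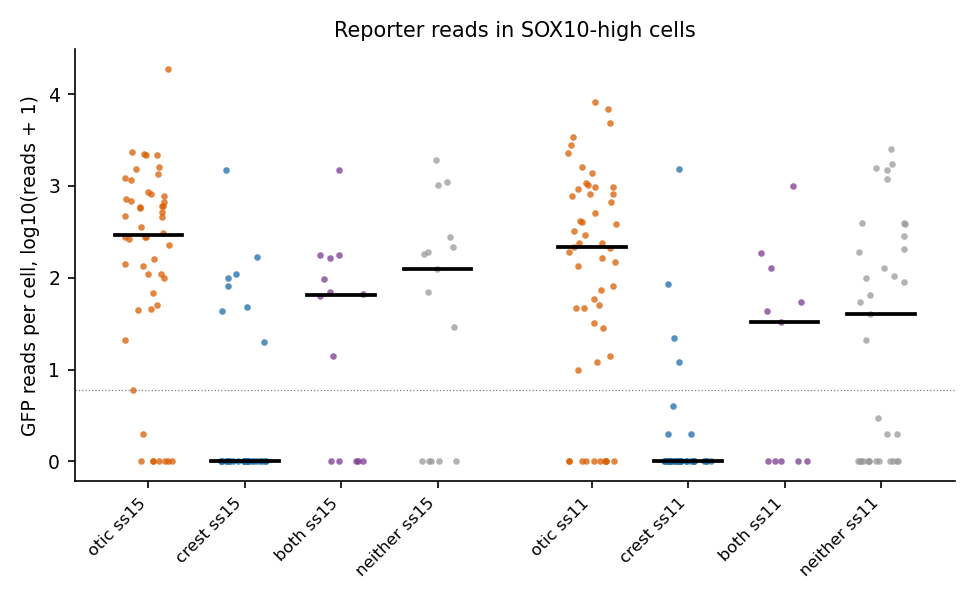
GFP reads per SOX10-high cell as log10 of reads plus 1 (vertical axis), by gate and stage, with otic-gated cells left of crest-gated cells, followed by the cells with both and with neither gate gene. Points are cells, black bars medians and the dotted line 5 reads. Medians were 290.5 and 213.5 reads in otic-gated cells and 0 in crest-gated cells at both stages.

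SOX10-high cells outside the gates had markers of both sides. Of the cells with neither gate gene, SOHO-1 or LMX1A was present in 13 of 15 at ss15 and 25 of 35 at ss11, and TFAP2B or FOXD3 in 4 of 15 and 13 of 35. Of the cells with both gate genes, SOHO-1 or LMX1A was present in 9 of 14 and 6 of 11, TFAP2B or FOXD3 in 9 of 14 and 7 of 11, and both kinds in 4 of 14 and 3 of 11. GFP reads of at least 5 were found in 10 of 15 and 19 of 35 cells with neither gene and in 9 of 14 and 6 of 11 with both. The gates left out 75 SOX10-high cells (30.99%), among them cells with the markers of either gate.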

How the data were processed

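The authors made SmartSeq2 libraries from single EGFP-positive cells. Their processing notes name Cutadapt 2.10 for trimming, HISAT2 2.2.1 for alignment to galGal6 (a GFP sequence was included), and HTSeq 0.12.4 and SAMtools 1.10 for counting per gene. The deposited values are raw counts per gene and cell, and GFP counts were deposited beside them. No strand or molecular identifier is kept, so overlapping genes cannot be told apart, counts include PCR copies, and exact 95% intervals cover counting error only.

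Sums of counts per gate and stage were scaled to CPM, and folds were taken after adding 1 CPM (Python 3.11.15, NumPy 2.4.6, pandas 2.3.3, SciPy 1.17.1). Gate genes were left out. A fold against a gate with no read was computed against 3 reads over that gate. It covers counting error only, and sets no lower limit once differences between cells are allowed for. The procedure was tested on simulated counts. Symbols were read from the authors' tables, which pair them with identifiers. The sign of the authors' fold in their bulk comparison also split its genes into the Lmx1aE1 and Sox3U3 lists. Named genes were measured, 2-fold or more apart in the same direction at both stages, and ranked by the smaller log2 fold, 15 per side, while list members, genes shared against SOX10-low cells (up to 10 per direction) and the 5 largest stage differences per direction were named besides. Members, gates and gene lists were chosen with earlier results of these data known. Alternatives were TMM factors (edgeR 4.0.16, R 4.3.3), the mean over cells, 5 CPM added, minimum levels, thinning, stricter cells, other gate limits, cells with GFP reads and leaving out each gene's highest cell. A few single-gene values are not reported here. Sequences and coordinates were not used, and mitochondrial shares were not analysed here.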

Additional observations from a re-analysis of the deposited data

Results flagged for a closer look

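SFRP1 and SNAI1 lay on opposite sides at the 2 stages. SFRP1 had a log2 fold (otic-gated over crest-gated) of -1.46 at ss15 and 1.27 at ss11, and SNAI1 -1.05 at ss15 and 1.54 at ss11. With 1 sample per stage the difference between stages was not tested. With only cells that had at least 5 GFP reads, which left 8 crest-gated cells at ss15 and 4 at ss11, the SFRP1 value at ss11 was -0.07.

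The earliest stage, ss8, lay outside the comparison and held 38 SOX10-high cells (13.9% of those kept), whose values follow under the other observations.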

How the results depend on the processing

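The percent of measured genes past 2-fold (6 values, with their counts of genes) was recomputed under 12 settings. Raising the minimum to 50 CPM gave 9.23% (406 of 4397 genes) higher in otic-gated and 7.55% (332) in crest-gated cells at ss15, 8.86% (386 of 4358) and 5.64% at ss11, and 4.16% and 2.65% of 3922 genes at both stages. With no minimum they were 16.7% (3006 of 17994) and 11.2% (2019) at ss15, 16.2% (2973 of 18339) and 8.83% (1620) at ss11, and 7.13% (1165 of 16341) and 3.24% (529) at both. With at least 1000000 reads and 2000 genes per cell, 15.9% (1112 of 6987) were higher in crest-gated cells at ss15, on 15 otic-gated and 13 crest-gated cells. With only cells that had at least 5 GFP reads the values were 18.003% (1260 of 6999) and 18.6% (1304) at ss15 and 19.3% (1389 of 7211) and 15.6% (1125) at ss11, on 42 and 8 cells and on 42 and 4. By construction fewer genes enter with the higher minimum, more with none, and fewer cells with the limits on reads, genes or GFP. The other 55 of 72 counts lay within 1.5 times of those reported. All 30 named genes were 2-fold or more apart on the reported side at both stages under every setting but the GFP one, where 29 were. Changing the minimum level cannot alter a fold, so those settings could give no other outcome. The genes were also picked for large folds in these same cells. There PAX7 was at 2.96, RNF128 at -1.32 (both at ss15) and SFRP1 at -0.07 (ss11), against -2.27, 1.48 and 1.27, and the cause was not tested. TMM factors moved the median of all genes to -0.04 at both stages. Thinning changed the share of cells with a named gene by at most 3.90 percentage points. No paired analysis was possible because the values come from no test. Depth limits statements on genes with 0 to 3 reads in a gate.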

Other observations

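At ss8 (8 to 9 somites), where 8 pairs of near-identical libraries were each counted as 1 cell, the same limits gave 12 otic-gated and 17 crest-gated cells, with 4 that had both gate genes and 5 that had neither. SOX10-high cells were 13.9% of those kept. All 15 otic-side genes were higher in otic-gated cells by 2-fold or more, beside 12.5% of 7528 measured genes, and of the 15 crest-side genes all were higher in crest-gated cells, 14 of them by 2-fold or more, beside 8.42%. CISH was the exception, at 0 CPM in otic-gated and 1.14 CPM in crest-gated cells.

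FOXD3 had 0 CPM in 12 otic-gated and 125.6 CPM in crest-gated cells, present in 14 of 17, and TFAP2B 11.7 and 460.0 CPM, present in 3 of 12 and 16 of 17. PAX7 had 11.3 and 154.6 CPM. EPCAM had 1012 CPM in otic-gated and 63.8 CPM in crest-gated cells, and was present in 12 of 12 and in 12 of 17. FA2H had 975 and 2.24 CPM, present in 12 of 12 and 2 of 17. SOHO-1 had 52.3 CPM in otic-gated cells, in 5 of 12, and 0 in crest-gated cells. Cells of this stage were sequenced on another instrument per the study's methods, and levels were not compared with the later stages. The named genes were picked for large folds at those later stages and mostly stand on the bulk lists. The share over all genes is thus a low background for them.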
